A study of Mus musculus with 40 samples.

Results

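The hippocampus and the frontal cortex of the same mice were compared, gene by gene, across 20 cohorts of recipient mice. The 20 hippocampal libraries and the 20 frontal cortical libraries of the series, 40 of 40 in all, were joined on the Ensembl gene identifier, and each hippocampal library was paired with the frontal cortical library of its own cohort. The study transplanted the fecal microbiota of 10 donors with epilepsy into mice to ask how a clinical ketogenic diet (KD) acts through the gut microbiome. All mice were wild-type Swiss Webster, and per the study's methods they were germ-free females of 6 to 8 weeks on a control diet, colonized by oral gavage and sacrificed on day 4. Stool given before the donors began the diet made 10 pre-KD cohorts, stool given on the diet made 10 post-KD cohorts, and each library pooled the tissue of 6 mice of 1 cohort. There were thus 10 libraries each of pre-KD hippocampus, post-KD hippocampus, pre-KD frontal cortex and post-KD frontal cortex, and no library came from untreated mice. The question here was which genes and functions differed between the regions, and whether each difference held in the pre-KD and in the post-KD cohorts.

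The hippocampus is a folded sheet of cortex built from the granule cells of the dentate gyrus and the pyramidal cells of fields CA1, CA2 and CA3, and it is best known for its part in memory and as a frequent site of seizures. The frontal cortex is a layered neocortex, in which upper layers connect cortical areas and deep layers project to the striatum, thalamus and brain stem. Dissected blocks of either region can carry along neighbouring tissue, such as the choroid plexus of the ventricle beside the hippocampus or the striatum beneath the frontal cortex. In such bulk tissue, fewer cells of a type and less RNA per cell cannot be told apart.

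Total counts per library ranged from 1140756 to 1947416 in the hippocampus and from 1188447 to 2095352 in the frontal cortex, and were lower in the hippocampus in 15 of 20 cohorts (two-sided paired permutation test, p = 0.0418). Genes with at least 1 count numbered 10223 to 15750 and 11362 to 15140, and were fewer in the hippocampus in 14 of 20 cohorts (p = 0.0103), so genes of low level were less often seen there. The noncoding transcript Gm42418, which lies over ribosomal RNA sequence, took 8.63 to 18.02% of the counts of a library, without a detectable difference between regions (p = 0.739). The labels do not say whether the regions were extracted, prepared or sequenced together, and region and any such batch cannot be told apart. In 4 cohorts both regions had Xist at or below 27.2 CPM, against at least 449.7 in the other 16, and Ddx3y of the Y chromosome was at 34.6 or more in all 8 libraries of those 4 cohorts. This goes against the stated sex for those cohorts, but each of them contributed both regions to every comparison.

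Regions were compared with the cohort as a term of the model, so that each hippocampal library was set against its own partner. Levels are given in CPM, a gene's count scaled to a common library size with TMM factors, and differences as log2 fold changes from the fit, positive where the hippocampus was higher. Values given as ± SE with an adjusted p, or with the SE alone, are such log2 fold changes over all 20 cohorts. A gene was called different when its p from edgeR's quasi-likelihood test, adjusted across every tested gene after Benjamini and Hochberg, was under 0.05. That test took the spread of a gene from the trend of all genes at its level, so its p does not measure how far that gene itself varied between cohorts. Each SE therefore comes from the gene's own residual spread over the cohorts, and an own-spread p, adjusted in the same way, is added to each named gene that was called but did not pass with its own spread, a check added after the data were seen. Of 19422 genes tested, 554 (2.85%) were called: 169 (0.87%) were higher in the hippocampus and 385 (1.98%) higher in the frontal cortex. With each gene's own spread 142 and 242 were called, and 317 of these were among the 554, while DESeq2 called 357 and 676. Genes higher in the hippocampus included the dentate gyrus regulator Prox1, the neuronal calcium sensor Cpne6, the imprinted gene Nnat and the choroid plexus gene Ttr. Genes higher in the frontal cortex were led by genes known from striatal neurons, among them Penk, Ppp1r1b, Rgs9 and Drd1, and further held the upper-layer marker Lamp5 and the neuropeptide Npy.

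The fit without the cohort term, in which region and condition alone were modelled, called 805 genes higher in the hippocampus and 1130 higher in the frontal cortex. Most of these lay under 20 CPM. At 20 CPM or more it called 230 and 312 genes, beside 143 and 308 with the cohort term. Of the 554 genes called with the cohort term, 493 were also called without it and none had the opposite sign there. Leaving out the 3 cohorts whose hippocampal libraries detected the fewest genes, a choice made after seeing the data, left 171 genes called higher in the hippocampus and 285 higher in the frontal cortex. The median log2 fold change of all genes tested was -0.17 (-0.14 with RLE size factors and -0.07 in DESeq2), and that of the 6462 genes averaging at least 20 CPM was -0.07. Of those 6462 genes, 451 (6.98%) were called, 143 (2.21%) higher in the hippocampus and 308 (4.77%) higher in the frontal cortex. The difference reached 2-fold for 41 (0.634%) and 93 (1.44%) of them, and the median log2 fold change of the called genes was 0.68 and -0.68. In 61 of the 451 genes the direction was the same in all 20 cohorts, in 421 it was the same in at least 15, and the lowest number was 12. These genes were called on the same cohorts, so such agreement follows in part from the call. It was not counted over all 6462 genes.

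**Figure D1:**
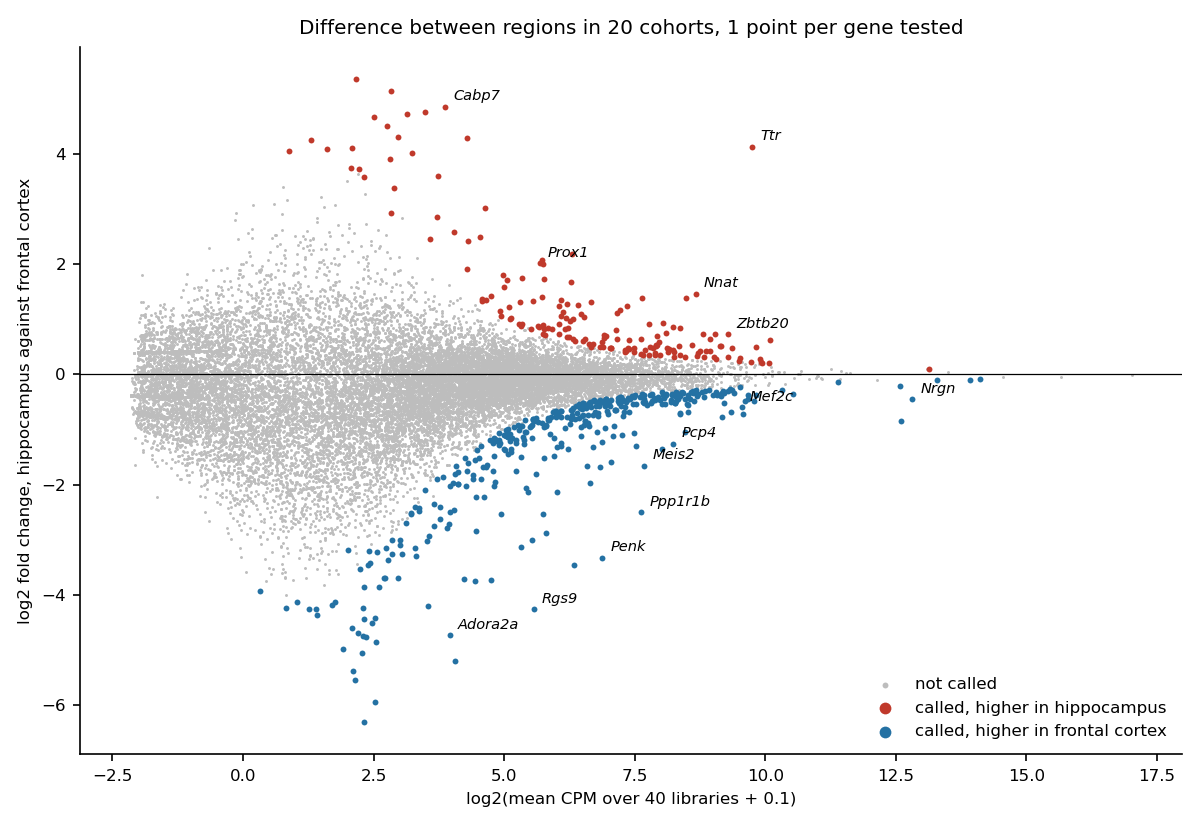
Mean level of each tested gene over the 40 libraries as log2(mean CPM + 0.1) (x axis) against its log2 fold change, hippocampus minus frontal cortex (y axis); coloured points are the 554 called genes. Called genes lie on both sides of 0, with 169 above it and 385 below it, and the farthest below it at high level are the striatal genes.

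Few genes separated the regions without overlap. In 5 genes (0.0257% of those tested) every hippocampal library lay above every frontal cortical library, namely Cpne6, Dgkg, C1ql2, Tcf4 and Nnat. In 9 genes (0.0463%) every hippocampal library lay below every frontal cortical one, namely Penk, Ppp1r1b, Tac1, Scn4b, Rasd2, Pcp4l1, Syndig1l, Pde10a and Rgs4. Tcf4, a basic helix-loop-helix factor (log2 fold change 0.62), Pde10a, a striatal phosphodiesterase (-1.66), and Rgs4, a regulator of G protein signaling (-1.05), are named because they belong to this small set, which was counted after the values were seen.

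Dentate gyrus granule cell markers were higher in the hippocampus for 4 of 13 genes tested and lower for 1, with a median log2 fold change of 0.83 over the list (range 0.39 to 0.86). Such a range gives the lowest and highest median over all settings run, and stands beside list medians that moved by over 1.5 times or changed sign under at least 1 alternative, as 33 of 41 did. Counts called in this and later lists may be read beside 0.87% higher and 1.98% lower of all genes tested. Of genes of at least 20 CPM, 2.21% were higher and 4.77% lower. Prox1, the homeobox factor that sets granule cell identity, had a lowest, median and highest level of 26.2, 84.3 and 140.4 CPM in hippocampal and 0, 20.7 and 52.3 CPM in frontal cortical libraries. It was higher in the hippocampus in 19 of 20 cohorts, although the ranges overlapped, with a log2 fold change of 2.01 ± 0.32 SE, adjusted p = 9.55e-15. C1ql2, a secreted protein of mossy fibre synapses, measured 4.51, 17.6 and 66.7 CPM in hippocampal and 0, 0.251 and 4.13 CPM in frontal cortical libraries. The 2 ranges did not overlap, and the log2 fold change was 4.75 ± 0.65 SE, adjusted p = 2.71e-09. Dsp, the desmosomal plaque protein desmoplakin, was higher in all 20 cohorts (2.58 ± 0.42 SE, adjusted p = 3.34e-05), with levels of 12.2, 24.8 and 56.4 CPM in hippocampal and 0, 4.27 and 20.7 CPM in frontal cortical libraries. Rfx3, a factor of cilium genes, was also called (0.83 ± 0.22 SE, adjusted p = 0.0103, own-spread p = 0.0598), but not without the cohorts of 1 donor, when the adjusted p was 0.104. The summed level of the 13 markers was 253, 346 and 465 CPM in hippocampal and 172, 215 and 275 CPM in frontal cortical libraries, given as the lowest, median and highest library, and was higher in the hippocampus in 20 of 20 cohorts.

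The promoters of genes from both ends of the comparison are shown because 2 of these genes (Prox1, C1ql2) are dentate gyrus markers called higher in the hippocampus and 1 (Rgs9) is a striatal marker called higher in the frontal cortex. The 250 bases before the transcription start are given 5′ to 3′ on the gene's strand, from RefSeq on GRCm38.p6, the assembly called mm10. Prox1 lies at chr1:190170828-190171077 on the minus strand, C1ql2 at chr1:120340332-120340581 on the plus strand and Rgs9 at chr11:109298182-109298431 on the minus strand. Capitals mark the 6-base E-box CAGATG or its complement CATCTG, a sequence bound by neuronal basic helix-loop-helix factors.
Prox1: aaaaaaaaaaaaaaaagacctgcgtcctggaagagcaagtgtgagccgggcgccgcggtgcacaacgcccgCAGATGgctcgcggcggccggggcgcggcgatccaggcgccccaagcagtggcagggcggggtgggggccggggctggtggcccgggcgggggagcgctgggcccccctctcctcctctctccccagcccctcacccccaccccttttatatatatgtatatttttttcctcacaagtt
C1ql2: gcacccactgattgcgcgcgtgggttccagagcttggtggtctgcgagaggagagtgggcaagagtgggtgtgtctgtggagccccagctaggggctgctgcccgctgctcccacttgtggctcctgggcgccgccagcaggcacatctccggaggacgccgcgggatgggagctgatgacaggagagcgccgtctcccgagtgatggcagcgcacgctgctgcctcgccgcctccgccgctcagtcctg
Rgs9: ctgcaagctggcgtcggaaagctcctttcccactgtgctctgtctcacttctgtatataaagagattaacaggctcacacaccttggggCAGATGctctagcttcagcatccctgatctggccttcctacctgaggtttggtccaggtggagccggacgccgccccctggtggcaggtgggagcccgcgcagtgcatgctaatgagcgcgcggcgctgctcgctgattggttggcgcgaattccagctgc
These Prox1 and Rgs9 windows held 1 match each and the C1ql2 window none. The window shown for Prox1 is that of its outermost start, and a second Prox1 window in the table held 0 matches. Promoter entries matched 103 of the 143 genes of at least 20 CPM called higher in the hippocampus and 225 of the 308 called higher in the frontal cortex, and some genes had several entries. The E-box occurred in 19 of 160 windows (11.9%) of the former and 26 of 337 (7.72%) of the latter, beside 632 of 6658 (9.49%) for all tested genes of at least 20 CPM and 14.4% of all 32851 windows. The 5-base cyclic AMP response half-site CGTCA or TGACG occurred in 31 of 160 (19.4%) and 58 of 337 (17.2%), beside 28.0% of the windows of tested genes of at least 20 CPM and 17.8% of all windows. For the called striatal markers, Rgs9 among them, either motif occurred in 3 of 11 windows (27.3%). These matches are a description of letters in fixed windows and carry no information on binding.

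Markers shared by several hippocampal neuron types were higher in the hippocampus for 7 of 14 genes and lower for none, with a list median of 0.71. Zbtb20, a zinc finger repressor needed for the hippocampal field to form, had levels of 563, 733 and 1108 CPM in hippocampal and 394, 449.9 and 701 CPM in frontal cortical libraries. It was higher in the hippocampus in every cohort (0.73 ± 0.08 SE, adjusted p = 4.74e-20), and 15 of 20 hippocampal libraries exceeded the highest frontal cortical one. Wipf3, an actin regulator, behaved alike, being higher in 20 of 20 cohorts (0.85 ± 0.11 SE, adjusted p = 9.38e-16). Cabp7, a calcium-binding protein, was near absent from the frontal cortex: its levels were 4, 27.1 and 54.6 CPM in hippocampal and 0, 0.541 and 5.66 CPM in frontal cortical libraries. The log2 fold change of Cabp7 was 4.85 ± 0.54 SE, adjusted p = 3.12e-13, with the hippocampus higher in every cohort. Hpca, the calcium sensor hippocalcin, was abundant in both regions and 1.41-fold higher in the hippocampus (0.50 ± 0.12 SE, adjusted p = 1.65e-11, 16 of 20 cohorts).

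The pyramidal fields gave fewer calls than the dentate gyrus. Of 9 CA1 markers only Lefty1 was called (4.26 ± 0.81 SE, adjusted p = 0.0234; 2 markers in DESeq2), at a median of 3.18 CPM in the hippocampus, and its adjusted p was 0.135 without the cohorts of 1 donor. Fibcd1, a CA1 marker, had a median of 10.2 CPM against 0.854 CPM in the frontal cortex, but with 2.84 ± 1.23 SE, adjusted p = 0.0747 it did not pass, while DESeq2 gave an adjusted p of 0.00326. Wfs1 and the CA2 marker Amigo2 did not pass either, at 0.13 ± 0.25 SE and 0.93 ± 0.95 SE. Of 12 CA3 and mossy cell markers tested, Rnf182, a ubiquitin ligase, was higher in the hippocampus (1.92 ± 0.36 SE, adjusted p = 0.00103, 20 of 20 cohorts) and Coch was lower (-4.70 ± 1.16 SE, adjusted p = 0.00293, but 0.18 without the cohort term), while Bok did not pass (-0.29 ± 0.36 SE). The CA3 list had a median of 0.24 and a mean of -0.03. Of 8 CA2 markers only Pcp4 was called, and in the direction of the frontal cortex. Pcp4, a calmodulin regulator that CA2 shares with deep cortical layers and striatum, measured 102, 183 and 301 CPM in hippocampal and 269.7, 423 and 579 CPM in frontal cortical libraries, and was lower in the hippocampus in 20 of 20 cohorts (-1.26 ± 0.10 SE, adjusted p = 9.8e-35).

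Other genes higher in the hippocampus were taken by size of change among genes of at least 20 CPM with the same direction in all cohorts. Nnat, an imprinted gene encoding the membrane protein neuronatin, had levels of 382, 552 and 901 CPM in hippocampal and 125, 207 and 307 CPM in frontal cortical libraries, and the ranges did not overlap. Its log2 fold change was 1.46 ± 0.10 SE, adjusted p = 1.89e-58, a 2.75-fold difference. Cpne6, a calcium-dependent membrane-binding protein of dendritic spines, had levels of 205, 286 and 400.3 CPM in hippocampal and 48.9, 117 and 191 CPM in frontal cortical libraries, also without overlap (1.39 ± 0.08 SE, adjusted p = 5.18e-31). Dgkg, a diacylglycerol kinase, had separate ranges too (1.31 ± 0.15 SE, adjusted p = 4.55e-15). Tgfb2, a secreted growth factor, measured 30.2, 81.9 and 169 CPM in hippocampal and 5.53, 19.4 and 51.7 CPM in frontal cortical libraries, and 20 of 20 cohorts showed the higher hippocampal level (2.07 ± 0.17 SE, adjusted p = 7.91e-17). The scaffold Tanc1 (1.73 ± 0.19 SE), the sialyltransferase St6galnac5 (1.17 ± 0.11 SE), the adhesion proteins Tenm2 (1.24 ± 0.13 SE) and Pcdh19 (1.25 ± 0.17 SE) and the semaphorin and VEGF receptor Nrp1 (1.35 ± 0.18 SE) were likewise higher in the hippocampus in every cohort, with adjusted p of at most 1.51e-09.

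**Figure D2:**
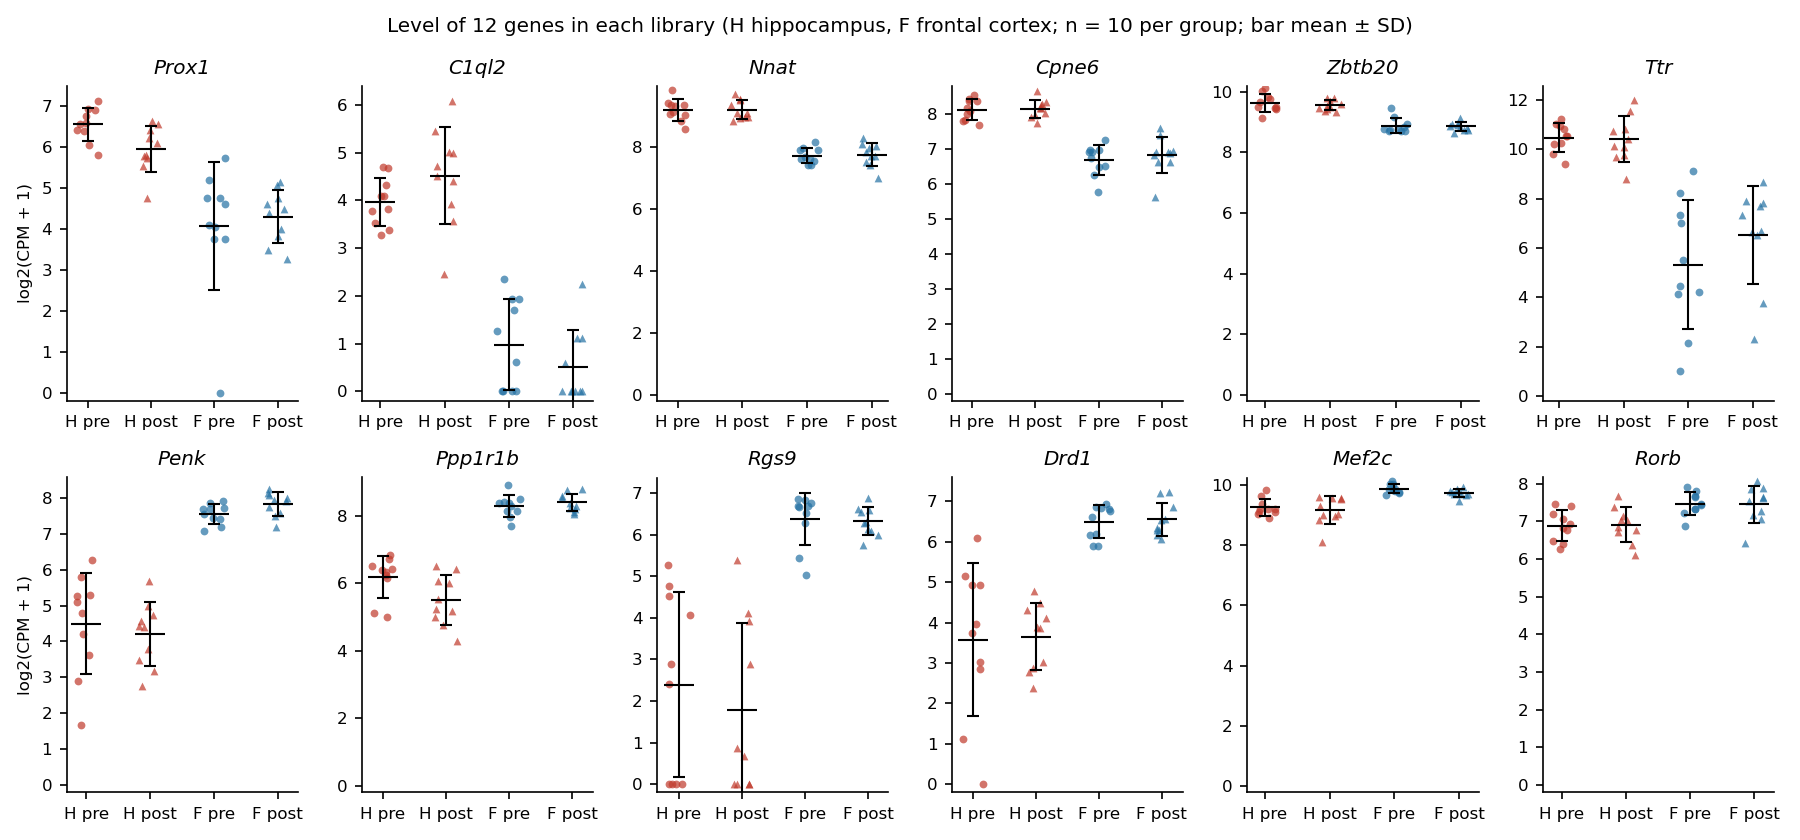
Level of 12 genes in each library as log2(CPM + 1) on the y axis, by region and condition on the x axis (H hippocampus, F frontal cortex), with circles for pre-KD and triangles for post-KD cohorts and bars for mean ± SD (n = 10 libraries each). Prox1, C1ql2, Nnat, Cpne6, Zbtb20 and Ttr lie higher in the hippocampus and the other 6 higher in the frontal cortex, in both conditions.

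Transcription factors that pattern the forebrain or fix neuronal identity differed in both directions, with 14 of 54 genes tested higher in the hippocampus and 11 higher in the frontal cortex, a list median of 0.05 (range 0.01 to 0.11). The shares over all genes tested were 0.87% and 1.98%, and over those of at least 20 CPM 2.21% and 4.77%. Nr2f2, an orphan nuclear receptor of the caudal cortex and its margins, measured 47.8, 111 and 209 CPM in hippocampal and 14.1, 35.4 and 61 CPM in frontal cortical libraries and was higher in the hippocampus in 20 of 20 cohorts (1.67 ± 0.16 SE, adjusted p = 5.42e-17). Bhlhe22, a basic helix-loop-helix factor of excitatory neurons, measured 23.3, 86.4 and 122 CPM in hippocampal and 7.99, 23.2 and 34 CPM in frontal cortical libraries, with 20 of 20 cohorts higher (1.99 ± 0.21 SE, adjusted p = 1.2e-15). The nuclear factor Nfib, which takes part in hippocampal and glial development, was also higher in every cohort (0.83 ± 0.09 SE, adjusted p = 2.93e-16). Toward the frontal cortex, Meis2, a homeobox factor abundant in striatal and upper cortical neurons, measured 25.5, 105 and 265 CPM in hippocampal and 222, 291 and 407 CPM in frontal cortical libraries and was lower in the hippocampus in 20 of 20 cohorts (-1.66 ± 0.18 SE, adjusted p = 8.23e-44). Foxp2, a forkhead factor of layer 6 and striatal neurons, measured 0, 11.4 and 42.1 CPM in hippocampal and 25.4, 46.6 and 103 CPM in frontal cortical libraries, again lower in 20 of 20 cohorts (-2.53 ± 0.47 SE, adjusted p = 1.92e-11), and Six3, a homeobox factor of the basal forebrain, was lower in every cohort too (-2.54 ± 0.40 SE, adjusted p = 5.93e-23). Mef2c, an activity-dependent factor of cortical excitatory neurons, was lower in 19 of 20 cohorts (-0.60 ± 0.09 SE, adjusted p = 4.2e-15), with levels of 275, 582 and 906 CPM in hippocampal and 697, 882 and 1120.3 CPM in frontal cortical libraries that overlapped.

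All 13 striatal markers tested were higher in the frontal cortex, with a list median of -3.32. Drd2, the dopamine receptor of indirect pathway neurons, was the one member not tested, having almost no counts in any library. Penk, the precursor of enkephalin peptides, measured 2.18, 21.8 and 76.4 CPM in hippocampal and 134, 206 and 300.1 CPM in frontal cortical libraries, without overlap and with a log2 fold change of -3.32 ± 0.29 SE, adjusted p = 1.61e-91. Ppp1r1b, the dopamine-regulated phosphatase inhibitor DARPP-32, measured 18.5, 68.9 and 113 CPM in hippocampal and 207, 323 and 478 CPM in frontal cortical libraries, also without overlap (-2.49 ± 0.19 SE, adjusted p = 2.63e-90). Rgs9, a striatal regulator of G protein signaling whose promoter is shown above, had levels of 0, 2.56 and 41 CPM in hippocampal and 31.5, 91.8 and 117 CPM in frontal cortical libraries. Of the hippocampal libraries 18 lay below the lowest frontal cortical one, and the log2 fold change was -4.26 ± 0.68 SE, adjusted p = 1.64e-43, lower in the hippocampus in 20 of 20 cohorts.

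Dopamine and adenosine signaling genes of the same list were likewise higher in the frontal cortex. Drd1, the dopamine receptor of direct pathway neurons, measured 0, 13.8 and 66.9 CPM in hippocampal and 58.4, 92.4 and 148 CPM in frontal cortical libraries and was lower in the hippocampus in 19 of 20 cohorts (-2.88 ± 0.39 SE, adjusted p = 4.76e-30). Adora2a, an adenosine receptor of indirect pathway neurons, measured 0, 0 and 11.9 CPM in hippocampal and 0, 26.5 and 65.4 CPM in frontal cortical libraries and had no counts in 11 of 20 hippocampal libraries (-4.73 ± 0.74 SE, adjusted p = 6.48e-12). Tac1, the substance P precursor, had separate ranges (-3.00 ± 0.46 SE, adjusted p = 2.31e-26), as had the sodium channel subunit Scn4b (-3.73 ± 0.55 SE, adjusted p = 4.53e-18). The summed level of the list was 94.5, 239.5 and 511 CPM in hippocampal and 761, 1352 and 1658 CPM in frontal cortical libraries, and was lower in the hippocampus in 20 of 20 cohorts. Striatal projection neurons and some cortical neurons share several of these genes. Whether the frontal cortical blocks held striatal tissue was not tested.

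Further genes of at least 20 CPM with the largest decreases in the hippocampus, in all 20 cohorts, were Syndig1l (-3.13 ± 0.37 SE), the small G protein Rasd2 (-2.13 ± 0.24 SE), Pcp4l1 (-1.98 ± 0.32 SE) and Cpne5 (-1.69 ± 0.29 SE). Syndig1l and Rasd2 are known from striatal neurons, Cpne5 is a relative of Cpne6, and the highest adjusted p of the 4 was 5.14e-22. Nrgn, the postsynaptic calmodulin-binding protein neurogranin, was among the most abundant called genes, at 4452, 5788 and 8531 CPM in hippocampal and 6048, 8029.9 and 11881 CPM in frontal cortical libraries, and was 1.36-fold higher in the frontal cortex (-0.44 ± 0.08 SE, adjusted p = 2.33e-44, 19 of 20 cohorts). Malat1, an abundant nuclear noncoding RNA, differed by only 0.09 ± 0.04 SE, adjusted p = 0.0278, own-spread p = 0.425, and its adjusted p was 0.0781 in DESeq2, 0.344 without the cohort term and 0.482 without the cohorts of 1 donor.

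Upper-layer cortical markers were higher in the frontal cortex for 5 of 12 genes and lower for none, with a list median of -0.54. Lamp5, a membrane protein of upper-layer and neurogliaform neurons, measured 9.07, 36.8 and 99.9 CPM in hippocampal and 42.8, 89.3 and 128 CPM in frontal cortical libraries and was lower in the hippocampus in 18 of 20 cohorts (-1.33 ± 0.26 SE, adjusted p = 2.86e-08). Cux1 (-0.94 ± 0.20 SE, adjusted p = 3.49e-07), Rorb (-0.57 ± 0.11 SE, adjusted p = 0.000699) and Stard8 (-2.46 ± 0.61 SE, adjusted p = 0.000262) were also called, Cux1 being a homeobox factor of upper layers and Rorb the nuclear receptor that marks layer 4. Cux2, the partner of Cux1, did not pass: its levels were 20.7, 55.8 and 111 CPM in hippocampal and 0, 80.8 and 119 CPM in frontal cortical libraries and its log2 fold change was -0.46 ± 0.32 SE, adjusted p = 0.296. The summed level of the upper-layer list was 366, 615 and 862 CPM in hippocampal and 644, 863 and 1024 CPM in frontal cortical libraries, lower in the hippocampus in 19 of 20 cohorts.

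Deep-layer markers went both ways. Of 16 layer 5 markers, 2 were higher in the hippocampus and 2 higher in the frontal cortex, and the list median of 0.03 (range -0.15 to 0.15) and mean of -0.17 differed in sign. Fezf2, the selector gene of subcortical projection neurons, measured 6.05, 62.9 and 109.9 CPM in hippocampal and 3.12, 32 and 58.2 CPM in frontal cortical libraries and was higher in the hippocampus in 17 of 20 cohorts (0.88 ± 0.26 SE, adjusted p = 0.00785, own-spread p = 0.0994), with an adjusted p of 0.0946 without the cohorts of 1 donor. Tshz2, a zinc finger factor, was also higher there, in 19 of 20 cohorts (1.27 ± 0.19 SE, adjusted p = 3.35e-09), whereas Pld5 (-2.72 ± 0.53 SE, adjusted p = 4.11e-05) and Gprin3 (-2.05 ± 0.39 SE, adjusted p = 2.43e-11) were lower. Of 15 layer 6 and subplate markers, 2 were higher in the hippocampus and 2 lower, with a median of -0.24 (range -0.33 to -0.11). Their summed level went the other way, being higher in the hippocampus in 15 of 20 cohorts. Its medians were 537 CPM in hippocampal and 471 CPM in frontal cortical libraries. Nr4a2, an orphan nuclear receptor of subplate and claustrum neurons, measured 111, 183 and 358 CPM in hippocampal and 53.2, 88.6 and 155 CPM in frontal cortical libraries and was higher in the hippocampus in 20 of 20 cohorts (1.12 ± 0.10 SE, adjusted p = 6.73e-15), as was Crym, a thyroid hormone binding protein, in 18 (0.996 ± 0.15 SE, adjusted p = 2.77e-06). Besides Foxp2, the synaptotagmin Syt6 was lower in the hippocampus (-2.84 ± 0.73 SE, adjusted p = 2.06e-07), and Tle4, a layer 6 corepressor, did not pass (-0.24 ± 0.17 SE). Of 13 markers shared by neocortical neurons, Mef2c, Lmo4 (-0.49 ± 0.09 SE, adjusted p = 2.9e-05) and Id2 (-0.42 ± 0.12 SE, adjusted p = 0.0123, own-spread p = 0.0908) were lower in the hippocampus and Fezf2 was higher, with a median of -0.25 (range -0.43 to -0.15). Without the cohorts of 1 donor Id2 had an adjusted p of 0.0823.

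**Figure D3:**
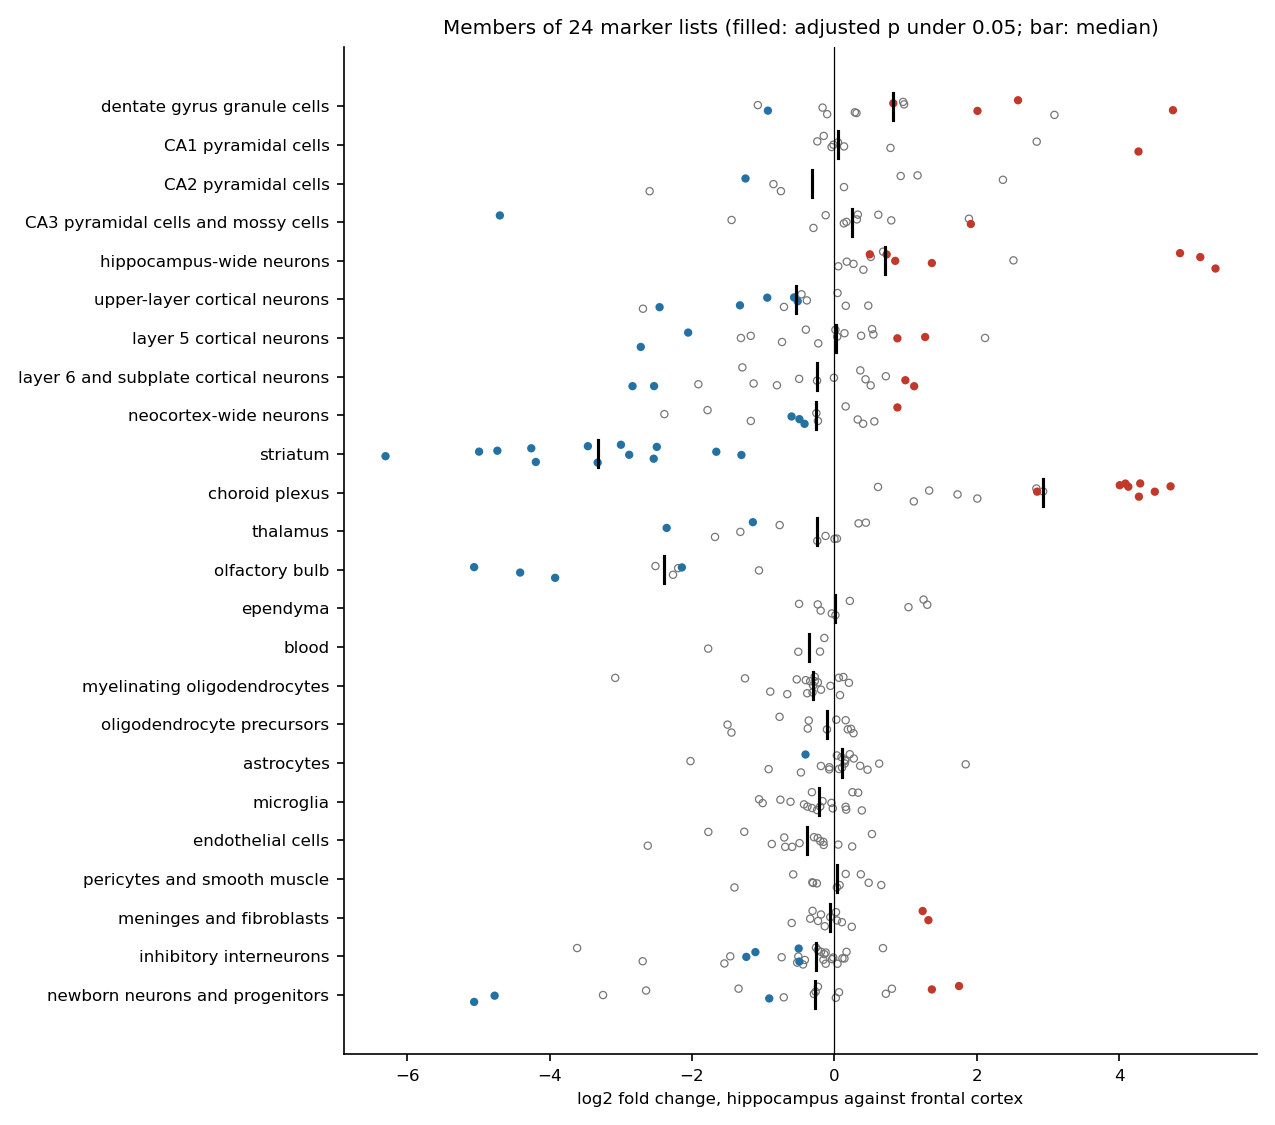
Log2 fold change, hippocampus minus frontal cortex (x axis), of each tested gene of 24 marker lists (y axis); filled points have an adjusted p under 0.05 and bars mark list medians. The striatal list lies wholly below 0 with a median of -3.32, the choroid plexus list has the highest median, 2.93, and the glial and vascular lists hold 1 call in edgeR, for astrocytes (5 in DESeq2), with edgeR medians of 0.10 for astrocytes (range 0.03 to 0.15), -0.22 for microglia (range -0.26 to -0.03), -0.30 for oligodendrocytes (range -0.34 to -0.13) and -0.39 for endothelial cells.

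Choroid plexus markers were higher in the hippocampus for 8 of 15 genes and lower for none, with a list median of 2.93 (range 1.93 to 3.48). Ttr, transthyretin, the thyroid hormone carrier that the choroid plexus secretes, measured 449, 1434 and 4159 CPM in hippocampal and 1.05, 101 and 558 CPM in frontal cortical libraries. It was higher in the hippocampus in 20 of 20 cohorts, at a log2 fold change of 4.13 ± 0.60 SE, with an adjusted p of 0.000355 in edgeR with its own spread, 8.66e-18 in DESeq2 and 7.57e-16 in edgeR without the cohort term. The size of the difference varied widely, the log2 ratio of a cohort running from 1.13 to 10.5. Sostdc1, a secreted BMP antagonist, measured 0, 33.5 and 81.9 CPM in hippocampal and 0, 0.27 and 28.1 CPM in frontal cortical libraries (4.28 ± 0.78 SE, adjusted p = 2.03e-13, 18 of 20 cohorts). Tmem72 (4.01 ± 0.71 SE, adjusted p = 3.08e-05) and the folate receptor Folr1 (4.72 ± 1.04 SE, adjusted p = 4.05e-05) were called at medians of 14.2 and 13.7 CPM in the hippocampus but 0 in the frontal cortex. The summed level of the list was 509.7, 1584 and 4487 CPM in hippocampal and 8.37, 117 and 630.3 CPM in frontal cortical libraries, and so spanned a wide range among libraries of 1 region. Ttr, at medians of 1434 and 101 CPM, made up most of the median sums. The log2 difference between regions was 3.96 for the sum and 1.71 for the mean log2 CPM of the members.

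Several markers of the olfactory bulb and thalamus were called higher in the frontal cortex, most of them at low level. Of 8 olfactory bulb markers tested, 4 were higher in the frontal cortex, with a list median of -2.39. Pbx3, a homeobox cofactor, was the most abundant of these, at 0, 16.2 and 81.3 CPM in hippocampal and 41.4, 66.1 and 111 CPM in frontal cortical libraries, and was lower in the hippocampus in 19 of 20 cohorts (-2.14 ± 0.48 SE, adjusted p = 8.95e-13). Th, which makes the dopamine precursor (-4.41 ± 1.27 SE, adjusted p = 0.00624, own-spread p = 0.107), and Eomes, a T-box factor (-5.06 ± 1.05 SE, adjusted p = 0.00086), had hippocampal medians of 0 CPM and frontal cortical medians of at most 5.82 CPM. Tbx21 had no count in any hippocampal library and a median of 0.628 CPM in the frontal cortex (adjusted p = 0.0421), and its own spread gave no p. The adjusted p of Th was 0.0665 and that of Tbx21 0.144 without the cohorts of 1 donor, and that of Eomes was 0.156 without the cohort term. Summed levels of the olfactory bulb list were 0, 32.5 and 91.8 CPM in hippocampal and 72.8, 108 and 188 CPM in frontal cortical libraries. Pbx3 alone, at medians of 16.2 and 66.1 CPM, gave a large part of these sums. Of 11 thalamic markers Ramp3 (-2.36 ± 0.94 SE, adjusted p = 0.028, own-spread p = 0.327) and Zfhx3 (-1.15 ± 0.36 SE, adjusted p = 0.00863, own-spread p = 0.146) were lower in the hippocampus, with that of Ramp3 0.181 without the cohort term and adjusted p of 0.154 and 0.0771 without the cohorts of 1 donor. No ependymal or blood marker was called (9 and 4 genes tested), where DESeq2 called 0 and 1. The parts of choroid plexus, olfactory bulb and striatum in these differences were not tested.

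**Figure D4:**
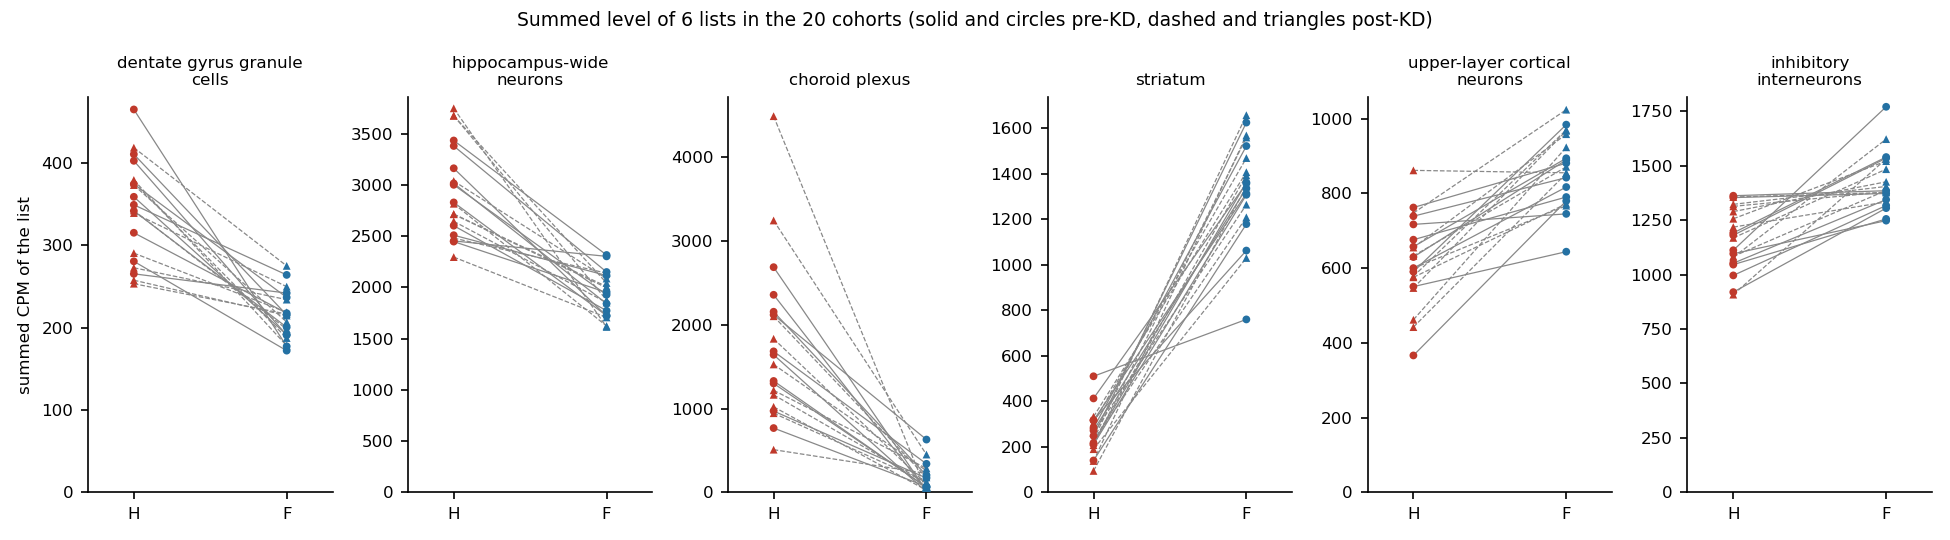
Summed level of 6 marker lists (y axis, CPM) in the hippocampus and frontal cortex of each cohort, with lines joining the libraries of a cohort, circles pre-KD and triangles post-KD. The choroid plexus list was higher and the striatal list lower in the hippocampus in all 20 cohorts, and summed levels of the choroid plexus list ran from 509.7 to 4487 CPM among the hippocampal libraries. Ttr alone ran from 449 to 4159 CPM there.

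Few glial and vascular markers were called at this depth. None of 19 myelinating oligodendrocyte, 11 oligodendrocyte precursor, 18 microglial, 16 endothelial or 11 pericyte markers was called, while DESeq2 called 2, 1, 0, 1 and 0 of them, and each of these lists had a median between -0.39 and 0.03. Some of these medians depended on the setting, the microglial one of -0.22 (range -0.26 to -0.03), that of oligodendrocyte precursors of -0.11 (range -0.34 to 0.11) and that of pericytes (range -0.20 to 0.15) among them. The endothelial list had the lowest median, with 3 of 16 markers above 0 and a summed level lower in the hippocampus in 16 of 20 cohorts, and 4 of 19 oligodendrocyte markers were above 0 at a median of -0.30 (range -0.34 to -0.13), beside the median of -0.17 of all genes. The pericyte list had a median of 0.03 and a mean of -0.10. Of 20 astrocyte markers only S100b, a calcium-binding protein, was called, lower in the hippocampus (-0.41 ± 0.11 SE, adjusted p = 0.00316, own-spread p = 0.0755), while DESeq2 called 3 higher and 2 lower. Mbp, the myelin basic protein, had a log2 fold change of -0.19 ± 0.08 SE, adjusted p = 0.0713. Gfap and Aqp4, the intermediate filament and water channel of astrocytes, measured 0.36 ± 0.23 SE and 0.63 ± 0.21 SE, the latter with an adjusted p of 0.126 in edgeR and 0.0156 in DESeq2, and the microglial receptor Cx3cr1 measured -0.32 ± 0.34 SE. Cldn5, the tight junction protein of brain endothelium, was at medians of only 7.77 and 9.11 CPM (-0.29 ± 0.78 SE). Of 13 meningeal markers, Igf2 (1.24 ± 0.14 SE, adjusted p = 6.73e-08) and Dcn (1.32 ± 0.26 SE, adjusted p = 9.78e-06), a growth factor and a matrix proteoglycan, were higher in the hippocampus, while the list median was -0.06 (range -0.20 to 0.19) and its mean 0.08.

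Interneuron markers were higher in the frontal cortex for 4 of 27 genes and lower for none, with a list median of -0.26 (range -0.38 to -0.14). Among all genes tested 1.98% were higher and 0.87% lower in the frontal cortex, and among those of at least 20 CPM 4.77% and 2.21%. Gad1 and Gad2, the enzymes that make GABA, were called at -0.49 ± 0.11 SE, adjusted p = 0.0178 and -0.50 ± 0.10 SE, adjusted p = 0.0121, in 16 and 17 of 20 cohorts, and had adjusted p of 0.0932 and 0.0575 without the cohorts of 1 donor. Npy, neuropeptide Y, measured 33, 108 and 161 CPM in hippocampal and 129, 195 and 337 CPM in frontal cortical libraries and was lower in the hippocampus in all 20 cohorts (-1.11 ± 0.15 SE, adjusted p = 3.26e-15). Dlx1, a homeobox factor of interneurons, was called at -1.24 ± 0.54 SE, adjusted p = 0.036, own-spread p = 0.393, with an adjusted p of 0.248 without the cohorts of 1 donor. The class markers Pvalb, Sst and Vip did not pass, at -0.12 ± 0.15 SE, -0.02 ± 0.09 SE and -0.74 ± 0.42 SE. Summed levels of the interneuron list were 908, 1174 and 1362 CPM in hippocampal and 1247, 1385 and 1769.7 CPM in frontal cortical libraries, lower in the hippocampus in 20 of 20 cohorts. Gad1 and Gad2 are made by striatal neurons as well as by cortical interneurons.

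Markers of newborn neurons and progenitors went both ways, 2 of 16 higher in the hippocampus and 3 lower, with a median of -0.28 (range -0.44 to -0.11). Hopx, a homeodomain-only protein of radial glia and dentate progenitors, was higher there (1.75 ± 0.32 SE, adjusted p = 3.65e-08), at medians of 62.2 and 19.7 CPM. Igfbpl1 (-4.77 ± 0.91 SE, adjusted p = 0.000482), Eomes and Sox4 (-0.92 ± 0.23 SE, adjusted p = 0.00224) were the lower ones.

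Calls among receptor genes for glutamate depended on the test. Among 16 ionotropic glutamate receptor subunits 1 was called, the AMPA receptor subunit Gria1, at 345, 579 and 895 CPM in hippocampal and 200.3, 343 and 419 CPM in frontal cortical libraries. Gria1 was higher in the hippocampus in 20 of 20 cohorts (0.73 ± 0.09 SE, adjusted p = 1.2e-15). DESeq2 called 4 subunits higher and 2 lower, and both limma-voom and the fit without the cohort term called 3 higher. The list median was 0.11 (range -0.03 to 0.14) and its mean -0.13, and the lowest of that range was without the cohorts of lowest detection. Of 7 metabotropic glutamate receptors, Grm3 (-1.41 ± 0.40 SE, adjusted p = 0.000236, own-spread p = 0.0831) and Grm4 (-1.04 ± 0.29 SE, adjusted p = 0.00352, own-spread p = 0.0791) were lower in the hippocampus, with a list median of 0.02 (range -0.11 to 0.09) and a mean of -0.38.

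Of 14 GABA-A and GABA-B receptor subunits, 3 were higher and 3 lower in the hippocampus, or 3 and 1 with each gene's own spread. Gabra5, the alpha 5 subunit of extrasynaptic receptors, measured 37.4, 70.9 and 188 CPM in hippocampal and 9.33, 27.5 and 62.5 CPM in frontal cortical libraries and was higher in the hippocampus in 19 of 20 cohorts (1.40 ± 0.22 SE, adjusted p = 1.37e-07). The subunits Gabrb1 (0.68 ± 0.09 SE, adjusted p = 1.07e-08) and Gabra2 (0.53 ± 0.12 SE, adjusted p = 4.93e-05) were also higher there. Gabrd, the delta subunit that gives tonic inhibition, was higher in the frontal cortex, at 0, 10.5 and 36.8 CPM in hippocampal and 13.3, 37.1 and 73.3 CPM in frontal cortical libraries (-1.90 ± 0.44 SE, adjusted p = 0.000141).

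Voltage-gated channel genes were called lower in the hippocampus more often than higher. Of 39 potassium and HCN channel genes, 7 were lower in the hippocampus and 1 higher, with a median of -0.33, including Kcnh1 (-1.12 ± 0.29 SE, adjusted p = 1.3e-08), Kcnv1 (-1.08 ± 0.19 SE, adjusted p = 4.04e-05) and Kcnh7 (-0.89 ± 0.37 SE, adjusted p = 0.000282, own-spread p = 0.354). Of 27 calcium and sodium channel genes, 7 were lower and none higher, with a median of -0.32 (range -0.33 to -0.21). These included Scn4b, Cacna2d2, an auxiliary calcium channel subunit (-1.15 ± 0.25 SE, adjusted p = 6.49e-06), and Scn1a, a sodium channel subunit whose loss causes epilepsy (-0.50 ± 0.14 SE, adjusted p = 0.000666, own-spread p = 0.0838). The shares called may be read beside 1.98% lower and 0.87% higher of all genes tested, and 4.77% and 2.21% of those of at least 20 CPM. The medians of both lists may be read beside that of all genes, -0.17. With each gene's own spread 3 genes of either list were lower and none higher.

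Among 52 receptors for monoamines, acetylcholine, peptides and cannabinoids, 6 were lower in the hippocampus and 1 higher, or 3 and 1 with each gene's own spread. Their median of -0.40 depended on the setting: it was -0.23 in DESeq2, -0.12 in limma-voom, -0.14 without the cohort term, -0.23 without the cohorts of lowest detection and -0.65 without the cohorts of 1 donor. Npy2r, a presynaptic receptor for neuropeptide Y, was the higher one (3.59 ± 0.74 SE, adjusted p = 2.1e-06), at medians of 21.1 and 1.3 CPM, so that the receptor and its ligand Npy differed in opposite directions. Drd1, Adora2a and the alpha 1A adrenergic receptor Adra1a (-3.03 ± 0.78 SE, adjusted p = 0.000781) were among the lower ones. Of 33 neuropeptides and granins 8 were lower, Penk, Tac1 and Npy among them, and 3 higher, with a median of -0.29 (range -0.38 to -0.17). The counts of both lists stand beside 1.98% lower and 0.87% higher of all genes tested. Of genes of at least 20 CPM, 4.77% were lower and 2.21% higher.

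Axon guidance genes gave 4 of 67 higher and 2 lower in the hippocampus, beside shares of 0.87% and 1.98% of all genes tested and 2.21% and 4.77% of those of at least 20 CPM, among them Nrp1, Epha4 (0.41 ± 0.08 SE, adjusted p = 0.0015) and Epha5 (0.42 ± 0.14 SE, adjusted p = 4.33e-05, own-spread p = 0.208) on the higher and Ephb1 (-0.92 ± 0.21 SE, adjusted p = 0.00729) on the lower side. DESeq2 called 10 higher and 8 lower in this list. Of 31 calcium-binding and calcium signaling genes 3 were higher and 6 lower. Hpca was among the higher ones, and Pcp4, Pcp4l1, Nrgn and Itpr1, an inositol trisphosphate receptor (-0.70 ± 0.10 SE, adjusted p = 1.48e-11), among the lower ones. Immediate early genes were split, with 2 of 18 higher and 2 lower. Jun was higher in the hippocampus (1.05 ± 0.22 SE, adjusted p = 1.38e-05) and so was Nr4a2, while Egr1 (-0.69 ± 0.12 SE, adjusted p = 2.61e-06) and Homer1 (-0.75 ± 0.17 SE, adjusted p = 7.82e-07) were lower, each in 19 of 20 cohorts.

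Few genes of the housekeeping lists were called in edgeR. Their counts stand beside 2.85% called of all genes tested and 6.98% of those of at least 20 CPM. Of 77 cytosolic ribosomal protein genes 2 were called, both higher in the hippocampus and Rpl17 among them (0.43 ± 0.12 SE, adjusted p = 0.0241, own-spread p = 0.0736), with a list median of 0.04 (range 0.02 to 0.07), and DESeq2 called 6, all higher. Of 76 nuclear oxidative phosphorylation genes Cox7c was higher (0.34 ± 0.13 SE, adjusted p = 0.014, own-spread p = 0.316) and Ndufs6 (-0.50 ± 0.15 SE, adjusted p = 0.0281, own-spread p = 0.106) and Cox4i1 (-0.30 ± 0.09 SE, adjusted p = 0.0265, own-spread p = 0.116) were lower, with a median of -0.05 (range -0.09 to -0.01). Without the cohorts of 1 donor, the adjusted p of these 4 named genes lay between 0.167 and 0.248.

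Of 11 mitochondrially encoded transcripts mt-Nd2 (-0.11 ± 0.05 SE, adjusted p = 0.000218, own-spread p = 0.413), mt-Nd1 (-0.10 ± 0.03 SE, adjusted p = 0.00778, own-spread p = 0.0764) and mt-Rnr1 (-0.08 ± 0.04 SE, adjusted p = 0.0168, own-spread p = 0.566) were lower in the hippocampus, by at most 1.08-fold, and neither DESeq2 nor the fit without the cohort term called any of them. Over the whole list, the fit without the cohort term called 1 transcript higher and 1 lower, and DESeq2 called 0. The list holds mt-Co3, a subunit that every respiring cell makes, which was listed at 0 in all 40 libraries, so a listed 0 in these tables does not show that a transcript was absent. Of 43 glutathione and antioxidant genes, with a list median of -0.28 (range -0.32 to -0.05), only Gpx1, a glutathione peroxidase, was called (-0.72 ± 0.24 SE, adjusted p = 0.0191, own-spread p = 0.184), against 2 in DESeq2, and its adjusted p was 0.203 without the cohorts of 1 donor. None of 15 genes of ketone body use and monocarboxylate transport was called in edgeR, against 2 in DESeq2, with a list median of -0.35 (range -0.41 to -0.11). Among 25 genes of GABA and glutamate synthesis, transport and breakdown, Gad1 and Gad2 were the 2 called.

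Regional differences were also fitted within either condition. Fitted on the 10 pre-KD cohorts alone, 193 of 17687 genes (1.09%) were called, 71 (0.401%) higher in the hippocampus and 122 (0.69%) lower. Fitted on the 10 post-KD cohorts alone, 251 of 17756 genes (1.41%) were called, 80 (0.451%) higher and 171 (0.963%) lower. With each gene's own spread the pre-KD fit called 16 and 17 genes and the post-KD fit 23 and 23, of which 13 were called in both, whereas DESeq2 called 175 and 259, and 204 and 378. These fits shared no library, though the donors were the same. Of the calls, 123 were made in both, 45 higher and 78 lower in the hippocampus, which is 63.7% of the pre-KD and 49.0% of the post-KD calls, and none had opposite signs.

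All 193 pre-KD calls had the same sign in the post-KD cohorts, and 171 had an unadjusted p under 0.05 there. Of the 251 post-KD calls, 244 had the same sign in the pre-KD cohorts and 193 had an unadjusted p under 0.05. Calls made in 1 condition and not in the other (70 and 128) are no sign of a difference between conditions. Over the 6462 genes of at least 20 CPM, log2 fold changes in pre-KD and post-KD cohorts had a Pearson correlation of 0.486 across genes, which are not independent replicates, and 4039 (62.5%) had the same sign.

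The leading genes differed between regions in both conditions. Penk had log2 fold changes of -2.99 in pre-KD and -3.64 in post-KD cohorts, Rgs9 -3.87 and -4.68, and Tac1 -3.00 and -2.99. On the hippocampal side Nnat had 1.48 and 1.44, Cpne6 1.45 and 1.32, and Nr2f2 1.66 and 1.67. Every one of these 6 genes was called in both fits. With their own spread Nnat, Cpne6 and Nr2f2 were called in both, Penk post-KD (adjusted p = 0.00434) but not pre-KD (0.0552), and Rgs9 and Tac1 in neither. Prox1 had 2.31 (adjusted p = 9.23e-11) and 1.71 (0.000348), and Ttr had 4.84 and 3.52, though neither gene passed in either fit with its own spread (adjusted p between 0.107 and 0.242). Of the striatal list 12 of 13 genes were called in each condition, and of the hippocampus-wide list 3 and 6 of 14. Some other lists had fewer calls in 10 cohorts than in 20. Of choroid plexus markers 2 and 4 were called, against 8 over all cohorts, of olfactory bulb markers 2 and 1 against 4, of interneuron markers 1 and 1 against 4, and of upper-layer markers 2 and 4 against 5. Of potassium and HCN channel genes 5 were lower pre-KD and 1 post-KD, and of calcium and sodium channel genes 3 and 5. Over all genes tested 0.69% were lower pre-KD and 0.963% post-KD. Lists whose counts did not fall in either condition included the CA2 and ionotropic glutamate receptor lists, with 1 call in all cohorts and in each condition, and the immediate early genes, with 4 calls pre-KD and 5 post-KD against 4 in all cohorts.

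**Figure D5:**
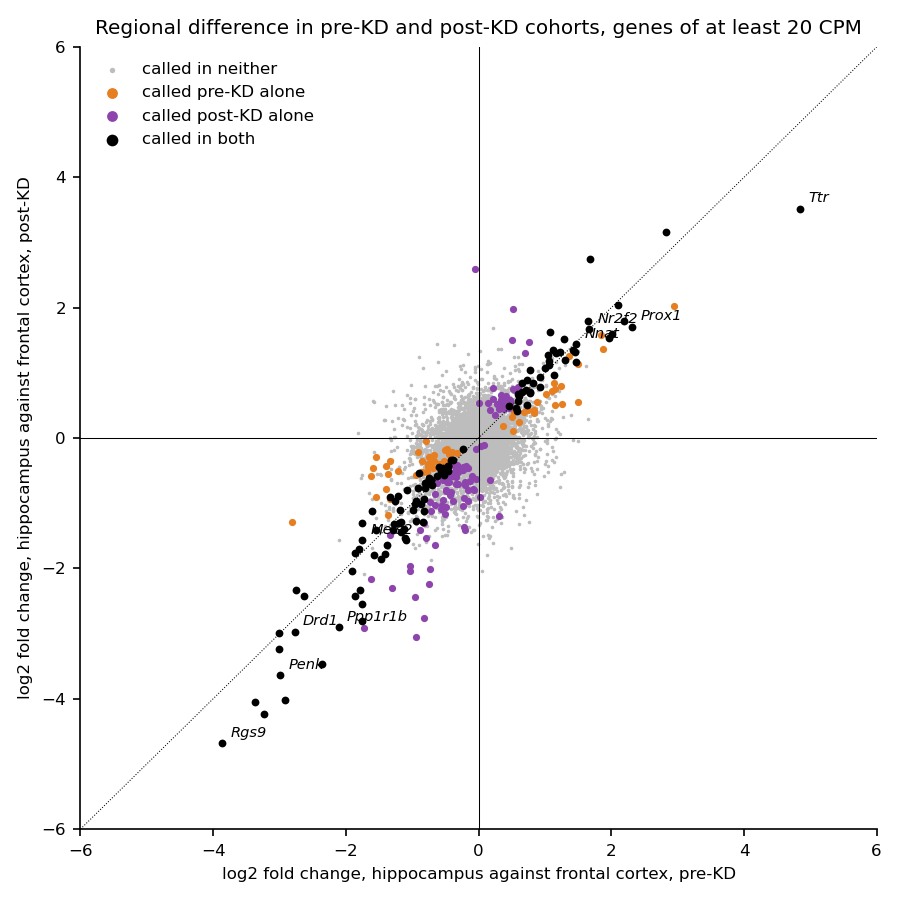
Log2 fold change, hippocampus minus frontal cortex, in the 10 pre-KD cohorts (x axis) against that in the 10 post-KD cohorts (y axis) for the 6462 genes of at least 20 CPM, coloured by whether a gene was called pre-KD alone, post-KD alone or in both. Most called genes lie along the diagonal in the quadrants of equal sign, and most other genes form a cloud around 0, with a correlation of 0.486 over all points.

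Whether the regional difference itself changed with the condition was tested as the region-by-condition term over all 40 libraries. Of 19422 genes, 3 (0.0154%) passed, 1 (0.00515%) with a more positive and 2 (0.0103%) with a more negative log2 fold change in post-KD cohorts, and 431 (2.22%) had an unadjusted p under 0.05. DESeq2 gave 0 genes with an adjusted and 949 with an unadjusted p under 0.05, and the fit without the cohort term 348 with an adjusted p under 0.05. The genes that passed were the ribosomal transcript Gm42418 and the mitochondrial transcripts mt-Rnr2 and mt-Nd4, all of very high level. For Gm42418 the log2 fold change was 0.08 in pre-KD and -0.10 in post-KD cohorts, a difference of -0.18 ± 0.19 SE, with adjusted p = 3.74e-20 in edgeR and 0.903 without the cohort term. For mt-Rnr2 the difference was -0.15 and for mt-Nd4 0.16, with adjusted p of 3.72e-05 and 0.0342. With the own spread of each gene none of the 3 passed, and the unadjusted p were 0.352 for Gm42418, 0.00581 for mt-Rnr2 and 0.148 for mt-Nd4.

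Among the 554 regional calls none passed the region-by-condition test, and 22 (3.97%) had an unadjusted p under 0.05. Ppp1r1b and Scn2b were the genes with the smallest p after the 3 that passed. Ppp1r1b was at -2.11 in pre-KD and -2.90 in post-KD cohorts, a difference of -0.79 ± 0.33 SE that did not pass. Scn2b, a sodium channel beta subunit, was at 0.17 in pre-KD and -0.65 in post-KD cohorts, and its difference of -0.82 did not pass with the cohort term, while without that term the adjusted p was 0.048.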

How the data were processed

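RNA of the hippocampus and frontal cortex was extracted with the PureLink RNA Mini kit and made into libraries with a TruSeq RNA kit, per the labels. The study's list of resources names a QuantSeq kit instead, which reads transcript ends, so that whether counts scale with transcript length is unsure. Differences were taken within genes only. According to the study's methods and the submitters' processing notes, the authors checked reads with FastQC 0.11.5, aligned them to the mouse mm10 genome with STAR 2.5.2a, processed the alignments with SAMtools 1.3 and counted reads per gene with HTSeq 0.6.0. The annotation release and strand setting are not given in the sources used here. The deposited values are whole-number counts per gene without normalization, 1 table for each region with 47643 genes and 20 columns, of which 0 were left unused. Of the gene identifiers 47224 were matched to symbols in GENCODE M21 and 419 were not.

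Groups came from the sample titles. A gene entered a fit when its counts reached 10 in sum there, and was tested in edgeR 4.0.16 (glmQLFit and glmQLFTest, TMM factors, R 4.3.3), with cohort and region as terms, over all cohorts, within pre-KD and within post-KD cohorts, and with a region-by-condition term. Adjusted p-values are by Benjamini-Hochberg over all genes of a fit. edgeR estimated the prior degrees of freedom as infinite in all 4 fits, so each gene's dispersion was set to the trend and its p-values do not measure the gene's own spread between cohorts. The SE printed was derived from the F statistic with the gene's residual deviance over its residual degrees of freedom, and the test was repeated on that basis (own-spread p), added after seeing the data. A list median is that of fitted values, which for a member without any count in 1 region depends on the prior count. Library totals were compared by a two-sided permutation test with 100000 resamples. Scripts were tested on simulated data first.

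Cohort numbers paired the libraries by design, since both regions were dissected from the mice of a cohort. Over 8157 genes averaging at least 20 counts, deviations of the libraries of a cohort from their group means correlated between -0.0231 and 0.202 (median 0.0119), above 0.1 in 1 of 20 cohorts.

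The genes, lists and tests described were chosen with earlier results of these data known. Genes were named by a rule: the 12 genes with the largest change in each direction among called genes of at least 20 CPM with the same direction in all 20 cohorts, up to 4 called genes with the smallest p from each list, a set of widely used markers, the genes with the smallest region-by-condition p, and the 5 called genes of highest level. Alternatives were DESeq2 1.42.0, limma-voom (limma 3.58.1) with quality weights, RLE size factors, other gene filters, no cohort term, removal of Gm42418, and leaving out the cohorts of each donor in turn. Human donor data were not used. A few genes that the rule names are not reported here.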

Additional observations from a re-analysis of the deposited data

Results flagged for a closer look

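A library far from the other 9 of its region and condition was sought in 168 groups of 10 (key genes, marker lists and library measures), by the gap to the nearest library as a share of the range. Chance alone marks about 1 in 20 such groups, and 10 were marked. In the pre-KD hippocampus these were the highest library for Drd1 (66.9 CPM), for the summed CA3 and mossy cell markers (580.1 CPM) and for the summed blood markers (1216 CPM), and the lowest for the summed layer 5 markers (350.2 CPM). In the post-KD hippocampus the highest library stood apart for Rgs9 (41.0 CPM). In the pre-KD frontal cortex 1 library had 0 CPM of Cux2. In the post-KD frontal cortex the highest library stood apart for C1ql2 (3.78 CPM), for the summed CA1 markers (455.9 CPM), for the summed layer 5 markers (684.8 CPM) and for the summed meningeal markers (1983 CPM).

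For 3 transcripts the regional difference itself differed between conditions by the edgeR test. The log2 fold change of post-KD cohorts minus that of pre-KD cohorts was -0.18 for Gm42418, -0.15 for mt-Rnr2 and 0.16 for mt-Nd4. Within conditions Gm42418 was higher in the hippocampus in 6 of 10 pre-KD and 3 of 10 post-KD cohorts, mt-Rnr2 in 7 and 1, and mt-Nd4 in 2 and 5. None of the 3 passed with its own spread (smallest unadjusted p 0.00581) or in DESeq2, where the smallest of their adjusted p was 0.834.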

How the results depend on the processing

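None of the 554 genes called over all cohorts had the opposite sign under any alternative run, and the number also called with the same sign was 524 in DESeq2, 516 without a gene filter, 428 with edgeR's filterByExpr, 509 with RLE size factors, 493 without the cohort term, 411 in limma-voom, 548 without Gm42418, 317 with each gene's own spread, 415 without the 3 cohorts of lowest detection, and 432 to 493 without the cohorts of 1 donor. Numbers of calls depended on the test more than these numbers show. DESeq2 called 357 genes higher in the hippocampus and 676 higher in the frontal cortex, 110 and 399 with at least 2-fold change (67 and 170 in edgeR), 175 and 259 in pre-KD cohorts, 204 and 378 in post-KD cohorts, 206 in both conditions and 0 for region by condition. Without the replicate block these were 805 and 1130 over all cohorts, 619 and 883 with at least 2-fold change, and 348 for region by condition, and the block changed the number of pre-KD, post-KD and shared calls by less than 1.5 times. With filterByExpr 102 genes were at least 2-fold higher in the frontal cortex and 0 passed for region by condition, where limma-voom gave 1. With each gene's own spread, added after seeing the data, 242 genes were higher in the frontal cortex, 112 at least 2-fold, 16 and 17 were called in pre-KD and 23 and 23 in post-KD cohorts, 13 in both and 0 for region by condition. Leaving out the cohorts of each donor in turn gave 138 to 161 genes higher in the hippocampus and 298 to 394 higher in the frontal cortex, 55 to 67 and 131 to 166 with at least 2-fold change, 65 to 78 and 97 to 125 in pre-KD cohorts, 59 to 85 and 125 to 173 in post-KD cohorts, 101 to 121 in both and 2 to 4 for region by condition.

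When the mean log2 CPM of the members stood in for the summed level, the difference between regions was -0.16 for the CA2 list, 1.05 for the hippocampus-wide list, -0.28 for the layer 6 and subplate list, 1.71 for the choroid plexus list and -0.37 for the thalamus list, and 18 of the 24 lists moved by over 1.5 times or changed sign. The 5 that changed sign were the layer 6 and thalamus lists and, by less than their spread between cohorts, the layer 5 (0.14 to -0.13), oligodendrocyte precursor (0.01 to -0.21) and pericyte lists (0.02 to -0.03). Of the 126 named genes 107 were called, 21 of these were not called without the cohorts of 1 donor, and 22 did not pass with their own spread. The medians of 33 of the 41 lists moved by over 1.5 times or changed sign under at least 1 of 19 alternatives, while those of the striatal, hippocampus-wide, olfactory bulb, upper-layer, CA3, endothelial, blood and potassium channel lists did not. Sst, not called and at -0.02 over all cohorts, turned to 0.0176 in DESeq2, 0.0164 with RLE size factors, 0.0127 without the block, 0.0761 in limma-voom and 0.0777 without the cohorts of lowest detection, and lay between -0.091 and 0.0267 without 1 replicate. Gm42418, not called over all cohorts, turned to 0.0214 in DESeq2 and with RLE size factors, 0.00124 without the block, 0.00028 in limma-voom and 0.0406 without the cohorts of lowest detection, and lay between -0.0775 and 0.0433 without 1 replicate. The cause of these changes was not tested. Genes under about 20 CPM had few counts in libraries of 1140756 to 2095352 counts.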

Other observations

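Some genes that brain tissue is known to express had almost no counts in these tables. Drd2 averaged 0 CPM in the hippocampus and 0.167 CPM in the frontal cortex, Chrm4 0 and 0.142 CPM, Drd3 0 and 0.17 CPM, and Grin2d and mt-Co3 0 CPM in both regions. These genes were picked after their values were seen. Whether the counting of reads that overlap several genes had a part in this was not tested.

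Nr4a3, a nuclear receptor induced by neuronal activity and also picked after its values were seen, had a log2 fold change of 2.59 in post-KD cohorts (edgeR adjusted p = 0.000845, or 0.346 with its own spread) and -0.06 in pre-KD cohorts. Its region-by-condition difference of 2.67 had an unadjusted p of 0.00152 and did not pass after adjustment over all genes.

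Outside the 4 cohorts of high Ddx3y, 1 of the other 16 hippocampal libraries held 15.8 CPM of Ddx3y, where the frontal cortical libraries held at most 0.943 CPM.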
